A study of Homo sapiens with 21 samples.

Results

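The genes described here encode the subunits of the hypoxia-inducible factors (HIFs) and the enzymes that sense oxygen for them. There are 10: the alpha subunits HIF1A, EPAS1 and HIF3A, their partners ARNT and ARNT2, the prolyl hydroxylases EGLN1, EGLN2 and EGLN3, the asparaginyl hydroxylase HIF1AN, and VHL. They were chosen by gene symbol, from a total of 20970 gene identifiers in 4 tables of RNA-seq values. Of the 10, 9 had a row in each table and 9 passed the filter on low values in each table that was tested, while HIF3A was not analysed here. ARNT2 passed that filter in 1 of the tables, that of BFTC909, only because its normoxic libraries, where it was high, count towards it.

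A HIF is a pair of an oxygen-sensitive alpha subunit and a stable beta subunit (ARNT or ARNT2). In oxygen, the prolyl hydroxylases mark the alpha subunit, VHL then binds the mark as the substrate receptor of a ubiquitin ligase, and the protein is destroyed. HIF1AN, also called FIH, hydroxylates an asparagine that keeps co-activators away. At low oxygen these reactions slow and the alpha subunit accumulates as a protein, so its mRNA level need not change, and HIF in turn is known to switch on EGLN3 and EGLN1 as a feedback loop. The values below are mRNA levels only.

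The 21 libraries came from 2 human cancer cell lines: FADU, of the head and neck, and BFTC909, of the renal pelvis. In each line, 2 libraries were made from cells with scramble siRNA (Scr-si) at 18% O2 (normoxia), 2 from Scr-si cells at 1% O2 (hypoxia) and 2 from cells labelled METTL4-si at 1% O2, all for 18 h. In FADU at 18% O2 there were also 2 libraries each of control cells, of cells overexpressing METTL4 and of cells overexpressing the long non-coding RNA RP11-390F4.3, all stable transfectants. The last 3 libraries were FADU at 1% O2: 1 of CRISPR control cells (genotype WT) and 1 from each of 2 clones with the METTL4-DPPW-mut genotype, in which prime editing had altered the catalytic motif of METTL4, a DNA N6-adenine methyltransferase in the study. For the cells with RP11-390F4.3, columns were found by elimination, the others in that table being named for control and METTL4, and the level of the RNA itself is not given because no identifier was matched to it. The labels describe 1 medium, that of FADU, for every sample.

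The values are TMM-normalized CPM, read counts divided by library size after scaling between the libraries of 1 table, and each table was scaled on its own, so levels were compared only within a table. Reads on genes numbered 21162570 to 24864024 in the FADU knockdown libraries, 19038795 to 24126269 in BFTC909, 20257044 to 25410656 in the overexpression libraries and 17781791 to 20063873 in the mutant libraries. Fold changes are from limma on log2(value + 1), with p-values adjusted by Benjamini-Hochberg over all tested genes of a comparison, and a gene was called when it differed by at least 1.3-fold with an adjusted p under 0.05. Nothing in the labels says that the 2 libraries of a group came from separate cultures, so the p-values measure the spread between libraries, which may be technical. In bulk RNA, fewer cells of a kind and less RNA per cell cannot be told apart.

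METTL4, the targeted gene, was not shown to differ in FADU. The libraries labelled METTL4-si had values of 24.2 and 27.1, against 26.6 and 25.3 in hypoxic Scr-si libraries (log2 fold change -0.02, SE 0.09, limma adjusted p = 0.90). In BFTC909 the values were 14.4 and 12.2 against 19.0 and 15.6 (log2 fold change -0.36, SE 0.13, limma adjusted p = 0.0717), which was not called, although it was after centring on the median (-0.45) or without METTL4-si replicate 1 (-0.46). Those libraries were below normoxia in BFTC909 (log2 fold change -0.55, SE 0.13, limma adjusted p = 0.00894), but not without normoxia replicate 1 (-0.48, limma adjusted p = 0.0756). Among the overexpressing cells METTL4 rose from 35.4 and 32.7 to 158 and 139, a 4.34-fold ratio of means.

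A few libraries had higher values than the rest for breast or urothelial markers, below called markers of other cells. The FADU library labelled METTL4-si replicate 1 had a summed value of 587 over 7 measured luminal breast markers of a list of 9, led by GREB1 at 187, and the FADU normoxia replicate 1 had 148, while the other 4 FADU knockdown libraries had 24.5 to 36.6. All 7 were above 0 in those first 2 libraries, and 6 in each of the others. The BFTC909 library labelled METTL4-si replicate 2 had 148 over the 2 measured urothelial markers of a list of 8, led by GATA3 at 128, and the other 5 libraries had 11.2 to 29.0. In those other 5, PPARG was the higher of the 2, at 10.7 to 28.2. GATA3 also led the urothelial sums of 2 FADU libraries, at 216 of 237 in METTL4-si replicate 1 and 41.1 of 73.8 in normoxia replicate 1. The study describes BFTC909 as an upper tract urothelial cancer line, and whether these markers are its own was not tested. In BFTC909 METTL4-si replicate 2 the 2 measured breast markers summed to 405 with CA12 at 285. The sums of the other 5 BFTC909 libraries lay close to their CA12 values. Squamous markers were high in every FADU library (summed values from 1509 to 3563), whereas BFTC909 had 2 measured squamous markers of 6, summing to at most 7.60, and 5 measured fibroblast markers of 7. The latter summed to 1020 to 1114 in normoxia, 4447 to 4652 in hypoxia and 2481 to 2680 in the libraries labelled METTL4-si, and their part in the results below was not tested. Most of each sum was 1 collagen gene, COL1A2, with 805 and 882 in normoxia, 3595 and 3755 in hypoxia and 1939 and 2003 in METTL4-si. Results are given without the 3 libraries high in breast or urothelial markers where that ends a call. In FADU this leaves the other 4 libraries in 3 groups, so the spread comes from the 2 hypoxic Scr-si libraries alone. Counts without the 3 libraries are therefore a description and no support for a call. In the overexpression table, RP11-390F4.3 replicate 2 had 76.3 over 5 breast markers and 50.6 over 4 urothelial ones, against 22.0 to 39.5 and 31.9 to 35.4 in the other 5 libraries. Without it EGLN3, EGLN1 and ARNT2 remained higher than in control and EGLN2 was short of the threshold.

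The members lie on 7 chromosomes of GRCh37 (hg19), the build of the reads, in the GENCODE annotation lifted to it. HIF1A (ENSG00000100644) spans chromosome 14, 62162231 to 62214977, on the plus strand, and EPAS1 (ENSG00000116016), which encodes HIF-2 alpha, spans chromosome 2, 46520806 to 46613836, plus. ARNT (ENSG00000143437) lies at chromosome 1, 150782189 to 150849184, minus, and ARNT2 (ENSG00000172379) at chromosome 15, 80696692 to 80890274, plus. EGLN1 (ENSG00000135766) lies at chromosome 1, 231499497 to 231558033, minus, EGLN2 (ENSG00000269858) at chromosome 19, 41304901 to 41314339, plus, and EGLN3 (ENSG00000129521) at chromosome 14, 34393433 to 34931980, minus. HIF1AN (ENSG00000166135) spans chromosome 10, 102288829 to 102319755, plus, and VHL (ENSG00000134086) chromosome 3, 10183462 to 10195351, plus. Exons of EGLN1 shared 55.8% of their bases with an unnamed gene on the same strand, and those of EGLN2 shared 30.6% with the readthrough gene RAB4B-EGLN2. Exons of VHL shared 23.5% of their bases with an unnamed gene on the opposite strand. How reads were divided in these 3 genes depends on counting settings that are not given in the sources used here.

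The core letters of a HIF binding site are ACGTG or GCGTG. The 250 bases before the start site are shown for EGLN1 and EGLN3, the members with the widest range of values over the FADU libraries, and for HIF1A, the member with the highest value per length in normoxia, with matches on either strand in capitals. The sequences are those of RefSeq (GRCh38.p14), found unchanged in GRCh37 at chr1:231558034-231558283 (minus), chr14:34420281-34420530 (minus) and chr14:62161981-62162230 (plus).
EGLN1: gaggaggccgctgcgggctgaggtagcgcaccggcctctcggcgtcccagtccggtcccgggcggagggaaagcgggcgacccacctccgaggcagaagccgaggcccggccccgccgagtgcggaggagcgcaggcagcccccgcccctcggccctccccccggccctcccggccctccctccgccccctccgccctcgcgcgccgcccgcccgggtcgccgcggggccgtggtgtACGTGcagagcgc
EGLN3: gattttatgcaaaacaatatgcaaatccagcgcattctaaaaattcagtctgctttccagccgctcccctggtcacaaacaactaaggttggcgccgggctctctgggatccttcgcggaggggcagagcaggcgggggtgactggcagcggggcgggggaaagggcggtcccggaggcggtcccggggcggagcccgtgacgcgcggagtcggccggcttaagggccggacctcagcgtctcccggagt
HIF1A: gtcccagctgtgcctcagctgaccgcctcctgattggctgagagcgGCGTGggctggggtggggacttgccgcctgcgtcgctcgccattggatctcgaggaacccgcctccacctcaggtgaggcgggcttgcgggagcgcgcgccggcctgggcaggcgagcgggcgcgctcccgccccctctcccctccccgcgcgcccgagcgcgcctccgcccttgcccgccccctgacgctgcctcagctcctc

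The window of EGLN1 held 1 match, ACGTG beginning 13 bases before the start site, and that of HIF1A 1 match, GCGTG beginning 204 bases before it. The window of EGLN3 held none. Of the other members with an entry in the RefSeq table, EPAS1 held 1 match, EGLN2 held 2 that overlap in CACGTG, HIF3A held 3, and ARNT and HIF1AN held none. ARNT2 and VHL have no entry there. Either sequence was found in 43.2% of all 35116 promoter windows of the same length, and ACGTG in 18.5%, so a match describes these letters and not a bound site.

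Hypoxia raised EGLN3 and EGLN1 in both lines, and the libraries labelled METTL4-si had less of both. Under hypoxia in FADU, 2 of the 9 measured members rose (EGLN3 and EGLN1; 9.73% of the 16324 tested genes rose) and 1 fell (EGLN2; 9.65% of genes fell). In BFTC909, 3 rose (EGLN3, EPAS1 and EGLN1; 17.9% of 14869 genes rose) and 2 fell (HIF1A and ARNT2, the latter tested only because of its high normoxic values; 18.3% of genes fell). The median log2 fold change of the 9 was -0.01 in FADU and 0.06 in BFTC909, beside -0.03 and -0.02 for all tested genes.

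Between the libraries labelled METTL4-si and the hypoxic Scr-si libraries, no member rose in FADU by limma or edgeR (12.5% of genes rose by limma). In FADU 3 fell (EGLN3, EGLN1 and ARNT; 15.3% of genes fell). An unadjusted limma p under 0.05 in either direction was seen for 7 of the 9, beside 7414 of all 16324 tested genes. In BFTC909, VHL rose (13.2% of genes rose) and EGLN1, EGLN3 and EPAS1 fell (11.7% of genes fell). Both comparisons with the hypoxic Scr-si libraries use those libraries, so their directions are not independent. Set against normoxic Scr-si cells instead, the FADU libraries labelled METTL4-si had no member higher by limma or edgeR (8.13% of genes were by limma). EGLN1 was lower (13.5% of genes were). At an unadjusted limma p under 0.05 in either direction were 3 members, beside 6775 of the 16324 genes. In BFTC909, EPAS1 and ARNT were higher (24.4% of genes were) and EGLN1 and HIF1A lower (23.2% of genes were).

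In normoxic FADU cells, METTL4 overexpression raised 3 members (EGLN3, EGLN1 and ARNT2; 8% of 15644 genes rose) and lowered EPAS1 (10.5% of genes fell). RP11-390F4.3 overexpression raised the members EGLN3, EGLN1 and ARNT2 (16.5% of genes rose) and lowered EGLN2 (12.5% of genes fell). These comparisons share their 2 control libraries. The joint fit of both knockdown tables tested whether a change differed between the lines, as BFTC909 minus FADU. The response to hypoxia differed for EGLN3, EPAS1 and EGLN1 (25.9% of 13595 genes differed), and the change in the libraries labelled METTL4-si differed for EGLN3, EGLN1, HIF1A and VHL (25.3% of genes differed).

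**Figure D1:**
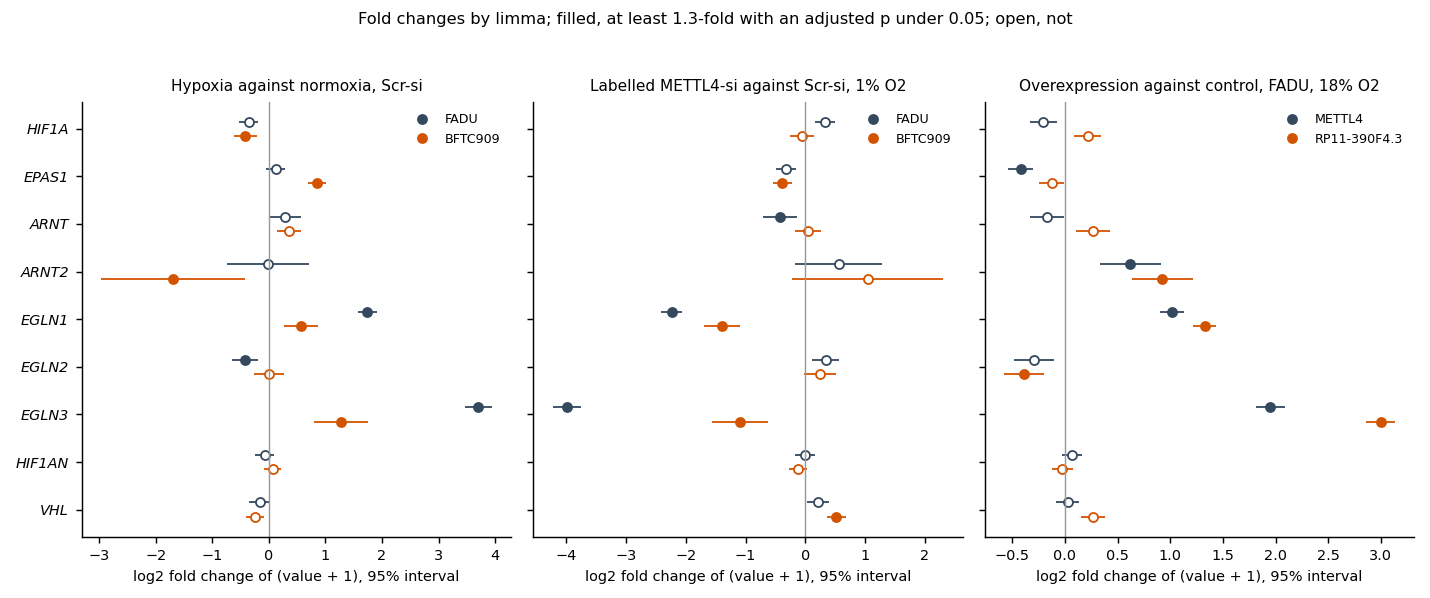
Log2 fold changes of (value + 1) for the 9 measured genes, with 95% intervals from limma, for hypoxia against normoxia (left), libraries labelled METTL4-si against Scr-si at 1% O2 (middle) and overexpression against control at 18% O2 (right). Filled points were called and open points were not. EGLN3 and EGLN1 lie right of 0 in the left and right panels and left of 0 in the middle one, and most other genes lie nearer to 0, with ARNT2 in BFTC909 the widest interval.

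HIF1A encodes the alpha subunit of HIF-1, and the fall of its mRNA in hypoxia was called in BFTC909 and short of the threshold in FADU. In FADU its values were 204 and 197 in normoxia, 157 and 155 in hypoxia, and 208 and 188 in the libraries labelled METTL4-si. Both hypoxic Scr-si libraries lay below the other 4. The log2 fold change of hypoxia against normoxia was -0.36 (SE 0.07, limma adjusted p = 0.0141), a 1.29-fold difference that was short of the 1.3-fold threshold. In the libraries labelled METTL4-si it was 0.34 above Scr-si on the log2 scale (SE 0.07, limma adjusted p = 0.0124), also short of it at 1.27-fold. It was called at 0.41 when replicate 2 of the libraries labelled METTL4-si was left out.

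In BFTC909, HIF1A had values of 640 and 635 in normoxia, 497 and 459 in hypoxia, and 498 and 427 in the libraries labelled METTL4-si. The normoxic libraries were above the other 4, and the last 2 groups overlapped. HIF1A fell in hypoxia by 0.42 on the log2 scale (SE 0.09, limma adjusted p = 0.00697, 1.33-fold), and was also lower than in normoxia in the libraries labelled METTL4-si (log2 fold change -0.47, SE 0.09, limma adjusted p = 0.0031). Between the hypoxic groups the log2 fold change was -0.05 (SE 0.09, limma adjusted p = 0.69). The fall in hypoxia was no longer called without normoxia replicate 1 (limma adjusted p = 0.0646), normoxia replicate 2 (0.0579) or hypoxia replicate 2 (0.073), or when libraries were centred on their median (log2 fold change -0.34). The value against normoxia lost its call without METTL4-si replicate 2, 1 of the libraries with markers of other cells (-0.36).

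The response of HIF1A to hypoxia was not shown to differ between the lines (-0.06, SE 0.11, limma adjusted p = 0.759). The change of HIF1A in the libraries labelled METTL4-si differed between the lines, by -0.39 (SE 0.11, limma adjusted p = 0.0343). That call was lost without any 1 of 10 of the 12 libraries (limma adjusted p from 0.0516 to 0.124), and kept only without replicate 1 of METTL4-si in BFTC909 or replicate 2 of it in FADU. At 18% O2, HIF1A had 213 and 185 in control cells, 176 and 167 in METTL4 cells and 235 and 226 in RP11-390F4.3 cells. The 3 groups did not overlap, but both differences were short of 1.3-fold (log2 fold changes -0.21 and 0.22, SE 0.06 each, limma adjusted p = 0.0147 and 0.00839).

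HIF1A-AS3 (ENSG00000258667), on the opposite strand and sharing 5.80% of the exon bases of HIF1A, moved more than HIF1A. In FADU it had values of 0.582 and 0.536 in normoxia, 7.68 and 9.26 in hypoxia, and 0.439 and 0.489 in the libraries labelled METTL4-si. The hypoxic Scr-si libraries were far above the other 4. Overexpression libraries had 0.429 and 0.419 in control cells, 1.39 and 0.906 with METTL4, and 2.05 and 2.48 with RP11-390F4.3. HIF1A-AS3 passed the filter on low values only through the groups where it was high, so these values are a description with no test. Libraries were made with a stranded kit, but the strand setting of the counting is not given in the sources used here, so reads of the shared bases cannot be assigned with certainty. HIF1A-AS3 was not analysed here in BFTC909. In the CRISPR control it had 1.73, and in the mutant clones 2.38 and 2.17. HIF1A-AS1, also opposite to HIF1A, had low BFTC909 means of 0.323 in normoxia, 0.624 in hypoxia and 0.391 in METTL4-si. NDUFB8, which shares 2.34% of the exon bases of HIF1AN on the opposite strand, was not called in any comparison.

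EPAS1 encodes HIF-2 alpha, and its mRNA rose in hypoxia in BFTC909. Its values there were 202 and 201 in normoxia, 367 and 363 in hypoxia, and 294 and 267 in the libraries labelled METTL4-si. The 3 groups did not overlap, and the libraries labelled METTL4-si lay between the others. EPAS1 rose 1.81-fold in hypoxia (log2 fold change 0.85, SE 0.07, limma adjusted p = 0.000117). It was lower in the libraries labelled METTL4-si by 1.302-fold (log2 fold change -0.38, SE 0.07, limma adjusted p = 0.00544), at the threshold, and stayed above normoxia by 1.39-fold (0.47, SE 0.07, limma adjusted p = 0.000901). The call against Scr-si was lost without hypoxia replicate 1 (limma adjusted p = 0.0617), hypoxia replicate 2 (0.0576) or METTL4-si replicate 2 (log2 fold change -0.31), and with a pseudocount of 5 (-0.38).

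In FADU, EPAS1 had 71.8 and 67.5 in normoxia, 73.5 and 78.3 in hypoxia, and 60.3 and 61.0 in the libraries labelled METTL4-si. The hypoxic libraries were the highest by a small margin, and neither difference was called (log2 fold change 0.12, SE 0.07, limma adjusted p = 0.248 for hypoxia, and -0.32, SE 0.07, limma adjusted p = 0.0144 for METTL4-si). The response of EPAS1 to hypoxia was larger in BFTC909 than in FADU, by 0.73 on the log2 scale (SE 0.09, limma adjusted p = 0.000523). With METTL4 overexpression EPAS1 fell from 86.7 and 95.7 to 67.3 and 68.3 (log2 fold change -0.42, SE 0.05, limma adjusted p = 3.91e-05), a call that was lost without control replicate 2 (-0.35). RP11-390F4.3 cells had 82.5 and 84.3 (log2 fold change -0.13, SE 0.05, limma adjusted p = 0.0674).

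Per kb of transcript, HIF1A exceeded EPAS1 in every library. The ratio in BFTC909 was 4.14 and 4.13 in normoxia, 1.77 and 1.65 in hypoxia and 2.21 and 2.09 where cells were labelled METTL4-si. The FADU ratio was 3.71 and 3.82 in normoxia, 2.79 and 2.59 in hypoxia and 4.495 and 4.02 where cells were labelled METTL4-si. In both lines the hypoxic Scr-si libraries thus had the lowest ratio, which came with more EPAS1 and less HIF1A in BFTC909.

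ARNT, the common HIF beta subunit, moved by 1.34-fold or less in every comparison. In FADU its values were 50.7 and 47.7 in normoxia, 59.4 and 60.8 in hypoxia, and 50.6 and 39.1 in the libraries labelled METTL4-si. The last 2 libraries differed from each other more than those of the other groups. The log2 fold change of hypoxia was 0.28 (SE 0.12, limma adjusted p = 0.133), and ARNT was lower in the libraries labelled METTL4-si than in hypoxic Scr-si (-0.42, SE 0.12, limma adjusted p = 0.035). That call was lost without any 1 of 5 libraries: FADU normoxia replicate 1 (limma adjusted p = 0.0587) or 2 (0.0699), hypoxia replicate 1 (0.145) or 2 (0.172), or METTL4-si replicate 2 (log2 fold change -0.24), and in a fit of the compared groups alone.

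In BFTC909, ARNT had 35.0 and 37.9 in normoxia, 45.5 and 48.1 in hypoxia, and 45.1 and 51.8 in the libraries labelled METTL4-si. The normoxic libraries were the lowest, and the hypoxic groups overlapped. Hypoxia gave 1.28-fold (log2 fold change 0.35, SE 0.09, limma adjusted p = 0.0172), short of the threshold, and a call when libraries were centred on their median (0.42). The libraries labelled METTL4-si were above normoxia (log2 fold change 0.40, SE 0.09, limma adjusted p = 0.00796), but not without normoxia replicate 1 (limma adjusted p = 0.0803), without METTL4-si replicate 2 (log2 fold change 0.30), with a pseudocount of 5 (0.36) or after centring (0.37). The difference between lines of the METTL4-si change was 0.47 (SE 0.16, limma adjusted p = 0.0588), and passed without FADU METTL4-si replicate 1 (0.65) or BFTC909 METTL4-si replicate 1 (0.57). Stable transfectants had ARNT values of 52.1 and 48.9 in control cells, 45.1 and 44.5 in METTL4 cells and 55.4 and 67.2 in RP11-390F4.3 cells. Neither difference was called, but that of RP11-390F4.3 was (0.41) without its replicate 1.

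ARNT2, a second beta subunit best known from neurons, was the least abundant member per length in every group. In BFTC909 its values were 3.22 and 3.44 in normoxia, 0.385 and 0.287 in hypoxia (8 and 6 reads), and 0.375 and 4.53 in the libraries labelled METTL4-si. It was lower in hypoxia (log2 fold change -1.70, SE 0.54), with a 9.91-fold ratio of means. ARNT2 passed the filter on low values only through its normoxic libraries, so its calls against normoxia in this line are no test. The call in hypoxia was lost without either library of either group and with a pseudocount of 5 (-0.64), and ARNT2 was not tested with a mean of at least 5. The 2 libraries labelled METTL4-si stood at the level of hypoxia and above that of normoxia. The higher was replicate 2, in which GATA3 was also high.

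In FADU, ARNT2 had 5.07 and 3.48 in normoxia, 3.77 and 4.61 in hypoxia, and 9.45 and 4.58 in the libraries labelled METTL4-si. The value of 9.45 was in replicate 1, which also had the breast markers. The parts of these markers in the values of ARNT2 were not tested. No comparison within FADU knockdown was called (hypoxia, log2 fold change -0.01, SE 0.30, limma adjusted p = 0.982; METTL4-si, 0.56, SE 0.30, limma adjusted p = 0.196), while the METTL4-si libraries without replicate 2 were called higher than hypoxic Scr-si (1.01) and than normoxia (1.002). In BFTC909 the METTL4-si change was 1.05 (SE 0.54, limma adjusted p = 0.18), and was called at 2.05 without replicate 1. Against normoxia the log2 fold change was -1.65 without replicate 2. The difference between lines in the response to hypoxia was -1.69 (SE 0.73). Both values rest on the normoxic BFTC909 libraries through which ARNT2 passed the filter, so they are a description with no test. In transfected cells ARNT2 rose from 3.15 and 4.37 to 6.56 and 5.98 with METTL4 (log2 fold change 0.62, SE 0.13, limma adjusted p = 0.00235) and to 8.05 and 7.88 with RP11-390F4.3 (0.93, SE 0.13, limma adjusted p = 7.02e-05). With a pseudocount of 5 the change with METTL4 was short of 1.3-fold (0.37).

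**Figure D2:**
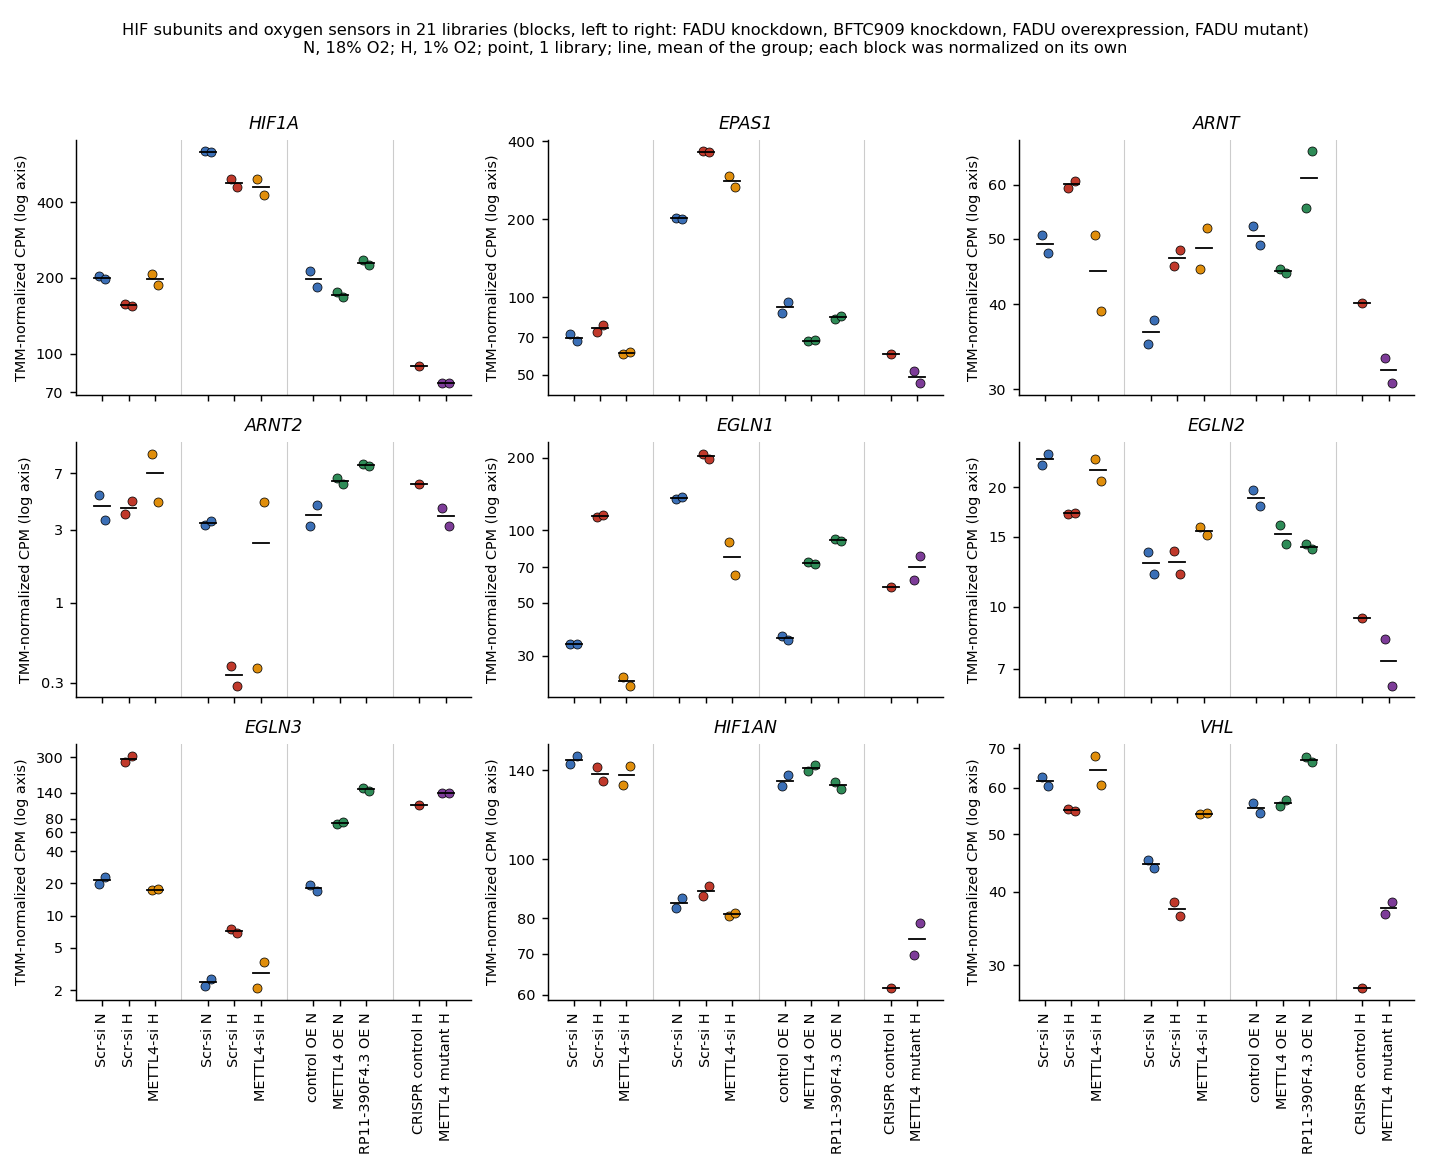
TMM-normalized CPM on log axes for the 9 measured genes in all 21 libraries (points) with the mean of each group (lines), where N is 18% O2 and H is 1% O2. EGLN3 in FADU goes from about 20 in normoxia to 274 and 311 in hypoxia, ARNT2 in BFTC909 drops to 0.385 and 0.287 in hypoxia, and HIF1AN stays within a narrow range in each of the first 3 blocks.

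EGLN3, the prolyl hydroxylase known for the strongest induction by HIF, had the largest log2 changes of the 9 in FADU, in hypoxia, in METTL4-si against hypoxic Scr-si and with either overexpression. In FADU its values were 19.9 and 23.2 in normoxia, 274 and 311 in hypoxia, and 17.2 and 17.6 in the libraries labelled METTL4-si. The hypoxic Scr-si libraries were more than 10 times above all others, and the libraries labelled METTL4-si were below both normoxic ones. EGLN3 rose 13.6-fold in hypoxia (log2 fold change 3.70, SE 0.10, limma adjusted p = 2e-05) and was 16.8-fold lower in the libraries labelled METTL4-si (-3.99, SE 0.10, limma adjusted p = 1.74e-05). Against normoxia the latter gave -0.29 (SE 0.10, limma adjusted p = 0.0722), which was not called.

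In BFTC909, EGLN3 was scarce, with 2.19 and 2.56 in normoxia, 7.47 and 6.88 in hypoxia, and 2.11 and 3.73 in the libraries labelled METTL4-si. The hypoxic Scr-si libraries were again the highest. EGLN3 rose 3.02-fold in hypoxia (log2 fold change 1.28, SE 0.20, limma adjusted p = 0.00214) and was 2.46-fold lower in the libraries labelled METTL4-si (-1.09, SE 0.20, limma adjusted p = 0.00662). The second call was lost without hypoxia replicate 1 (limma adjusted p = 0.0634) or 2 (0.0507). Against normoxia EGLN3 was not called (0.19, SE 0.20), except without METTL4-si replicate 1 (0.49). The response to hypoxia was 2.43 lower on the log2 scale in BFTC909 than in FADU (difference -2.43, SE 0.24, limma adjusted p = 0.000183), and the change in the libraries labelled METTL4-si differed by 2.90 (SE 0.24, limma adjusted p = 6.92e-05). Adding 1 before the log understates the changes of this scarce gene in BFTC909. By edgeR the log2 fold change in hypoxia was 1.60 there and 3.79 in FADU, and that of METTL4-si -1.31 and -4.08.

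In the transfectants EGLN3 had 19.2 and 17.0 in control cells, 71.0 and 74.7 with METTL4 and 156 and 147 with RP11-390F4.3. All 3 groups were apart. The ratios of means to control were 4.02-fold (log2 fold change 1.95, SE 0.06, limma adjusted p = 4.32e-11) and 8.36-fold (2.998, SE 0.06, limma adjusted p = 4.34e-13).

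EGLN1, the main prolyl hydroxylase of most cells, moved with EGLN3 but less. In FADU it had 33.7 and 33.5 in normoxia, 114 and 115 in hypoxia, and 24.4 and 22.6 in the libraries labelled METTL4-si. The libraries of each group were close, and the 3 groups did not overlap. EGLN1 rose 3.41-fold in hypoxia (log2 fold change 1.74, SE 0.07, limma adjusted p = 6.46e-05) and was 4.87-fold lower in the libraries labelled METTL4-si (-2.24, SE 0.07, limma adjusted p = 3.23e-05). The latter also lay below normoxia by 1.43-fold (log2 fold change -0.50, SE 0.07, limma adjusted p = 0.00508), a call lost without normoxia replicate 2 (limma adjusted p = 0.0563).

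In BFTC909, EGLN1 had 135 and 137 in normoxia, 208 and 197 in hypoxia, and 89.0 and 65.4 in the libraries labelled METTL4-si, again with no overlap. It rose 1.49-fold in hypoxia (log2 fold change 0.57, SE 0.13, limma adjusted p = 0.0102), a call lost without either library of either group (limma adjusted p from 0.056 to 0.0811). It was 2.63-fold lower in the libraries labelled METTL4-si (-1.40, SE 0.13, limma adjusted p = 0.000368), which were also below normoxia by 1.77-fold (-0.83, SE 0.13, limma adjusted p = 0.00139). The response to hypoxia differed between lines by -1.17 (SE 0.16, limma adjusted p = 0.000954) and the METTL4-si change by 0.84 (SE 0.16, limma adjusted p = 0.00507). Overexpression took EGLN1 from 36.3 and 34.8 to 73.5 and 72.5 with METTL4 (2.05-fold, log2 fold change 1.02, SE 0.05, limma adjusted p = 3.73e-09) and to 91.7 and 89.8 with RP11-390F4.3 (2.55-fold, 1.33, SE 0.05, limma adjusted p = 1.76e-10).

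EGLN2, a prolyl hydroxylase not known as a HIF target, went the other way from EGLN1 and EGLN3 in FADU. It had 22.8 and 24.3 in normoxia, 17.2 in both hypoxic libraries, and 23.5 and 20.7 in the libraries labelled METTL4-si. The hypoxic Scr-si libraries were the lowest. EGLN2 fell in hypoxia by 0.43 on the log2 scale (SE 0.10, limma adjusted p = 0.0216, 1.37-fold), a call lost without any of its 4 libraries (limma adjusted p from 0.0933 to 0.149) and with a pseudocount of 5 (-0.36). The METTL4-si change was 0.34 (SE 0.10, limma adjusted p = 0.0332, 1.29-fold), short of the threshold, and was called at 0.43 without METTL4-si replicate 2.

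In BFTC909, EGLN2 had 13.7 and 12.1 in normoxia, 13.8 and 12.1 in hypoxia and 15.9 and 15.2 in the libraries labelled METTL4-si. The normoxic and hypoxic values overlapped (log2 fold change 0.00, SE 0.11, 95% interval -0.26 to 0.27), and the METTL4-si change was 0.25 (SE 0.11, limma adjusted p = 0.133). The response to hypoxia was not shown to differ between lines (0.43, SE 0.15, limma adjusted p = 0.054), although it passed with a pseudocount of 5 (0.37), a mean of at least 5, centring (0.47) or without any 1 of the libraries labelled METTL4-si. With overexpression EGLN2 went from 19.7 and 18.0 to 16.1 and 14.4 with METTL4 (log2 fold change -0.29, SE 0.09, limma adjusted p = 0.0188, not called) and fell to 14.4 and 13.96 with RP11-390F4.3 (-0.39, SE 0.09, limma adjusted p = 0.00241). The last call was short of 1.3-fold without control replicate 1 (-0.32), without RP11-390F4.3 replicate 2 (-0.37) or with a pseudocount of 5 (-0.31).

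Per kb of transcript, the order of the prolyl hydroxylases changed with oxygen in FADU. In normoxia EGLN2 was highest at 11.2, followed by EGLN3 at 7.97 and EGLN1 at 7.75, whose libraries overlapped. The bases that EGLN1 and EGLN2 share with other genes may not have been counted for them, so their values per kb may be too low and this order is uncertain. In hypoxia EGLN3 stood at 108, above HIF1A at 39.6, EGLN1 at 26.4 and EGLN2 at 8.19, each apart from the next. In the libraries labelled METTL4-si the order was again EGLN2 (10.5), EGLN3 (6.44) and EGLN1 (5.42).

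In BFTC909 the order was EGLN1, EGLN2 and EGLN3 in all 3 groups, with 31.5, 6.15 and 0.878 in normoxia and 46.8, 6.17 and 2.65 in hypoxia. The ratio of EGLN3 to EGLN1 per kb in FADU was 0.948 and 1.11 in normoxia, 3.87 and 4.32 in hypoxia, and 1.13 and 1.25 in the libraries labelled METTL4-si. Overexpression moved it from 0.847 and 0.784 in control cells to 1.55 and 1.65 with METTL4 and 2.72 and 2.63 with RP11-390F4.3. In BFTC909, EGLN1 exceeded EGLN3 in every library, by 38.5 and 33.5 times in normoxia, 17.4 and 17.9 times in hypoxia, and 26.3 and 10.96 times in the libraries labelled METTL4-si.

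HIF1AN was the steadiest member, and no comparison called it. In FADU it had 143 and 148 in normoxia, 142 and 134 in hypoxia, and 132 and 142 where cells were labelled METTL4-si. Its BFTC909 values were 83.4 and 86.3, 87.2 and 90.4, and 80.9 and 81.7 in the same order. Its log2 fold changes in these comparisons and with overexpression ran from -0.13 to 0.07, and the 95% intervals for hypoxia were -0.24 to 0.09 in FADU and -0.08 to 0.21 in BFTC909. Overexpression gave 132 and 137 in control cells, 139 and 143 with METTL4, and 134 and 131 with RP11-390F4.3.

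VHL was higher in the libraries labelled METTL4-si than in hypoxic Scr-si cells of BFTC909. Its values there were 45.2 and 43.8 in normoxia, 38.4 and 36.4 in hypoxia, and 54.1 and 54.3 in the libraries labelled METTL4-si. The 3 groups did not overlap. VHL rose 1.45-fold (log2 fold change 0.52, SE 0.07, limma adjusted p = 0.00181) between the hypoxic groups, and was short of 1.3-fold for hypoxia (-0.24, SE 0.07, limma adjusted p = 0.0259) and for METTL4-si against normoxia (0.28, SE 0.07, limma adjusted p = 0.0123).

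In FADU, VHL had 62.7 and 60.4 in normoxia, 55.1 and 54.8 in hypoxia, and 67.9 and 60.6 in the libraries labelled METTL4-si. The hypoxic Scr-si libraries were the lowest, as in BFTC909, but no comparison was called (hypoxia, log2 fold change -0.16, SE 0.08, limma adjusted p = 0.175; METTL4-si, 0.22, SE 0.08, limma adjusted p = 0.067). The METTL4-si change differed between lines by 0.30 (SE 0.10, limma adjusted p = 0.0492), which did not pass with a pseudocount of 5 (0.27), without a filter, after centring (0.24) or without any 1 of 11 of the 12 libraries (limma adjusted p from 0.0627 to 0.158), all but FADU METTL4-si replicate 1. Control transfectants had VHL values of 56.5 and 54.4, METTL4 cells 55.8 and 57.1, and RP11-390F4.3 cells 67.5 and 66.3, where the log2 fold change of 0.27 (SE 0.05, limma adjusted p = 0.000699) was short of 1.3-fold.

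The mutant table had 1 control library, so it gave no test, and its intervals cover counting error only. The ratio of each clone to the control is given, with a 95% exact interval from the recovered reads. METTL4 itself had 12.5 in the control, 15.9 in clone 1 and 10.6 in clone 2, and CA9, a HIF target that encodes a carbonic anhydrase, had 29.8, 10.4 and 15.2. Of the 20 HIF targets listed below, CA9 included, 4 were at least 1.3-fold lower in both clones and 2 at least 1.3-fold higher (11.8% and 8.94% of all genes were), and the median log2 ratio was -0.10 beside -0.004 for all genes. Between 40.9% and 43.0% of the reads of this table lay on no gene and were scaled with the rest.

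EGLN3, EGLN1, VHL and HIF1AN were higher in both clones, as were 39.6% of all genes. EGLN3 had 108 in the control, 141 in clone 1 and 139 in clone 2, ratios of 1.296 (95% interval 1.24 to 1.35) and 1.286 (1.23 to 1.34), just under 1.3. EGLN1 had 58.2, 62.0 and 78.2, with ratios of 1.06 (1.00 to 1.13) and 1.34 (1.26 to 1.43), so only the interval of clone 2 lay well above 1. VHL had 27.5, 36.6 and 38.5, with ratios of 1.33 (1.22 to 1.45) and 1.4 (1.28 to 1.53), and HIF1AN 61.6, 69.6 and 78.8, with 1.13 (1.06 to 1.2) and 1.28 (1.21 to 1.36).

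The subunit genes and EGLN2 were lower in both clones, as were 40.7% of all genes. HIF1A had 89.5 in the control, 76.1 in clone 1 and 76.5 in clone 2 (ratios 0.851 and 0.855), EPAS1 60.2, 51.6 and 46.4 (0.858 and 0.771), and ARNT 40.2, 33.4 and 30.6 (0.832 and 0.763). ARNT2 had 5.95, 4.14 and 3.19, with ratios of 0.697 (0.556 to 0.870) and 0.536 (0.417 to 0.686). EGLN2 had 9.37, 8.31 and 6.34, with ratios of 0.887 (0.752 to 1.05) and 0.677 (0.563 to 0.811).

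In all, 5 members were lower in both clones, as were 40.7% of all genes of the table, and 4 were higher in both, as were 39.6%. Only VHL was at least 1.3-fold higher in both clones (8.94% of 15719 genes were), and only ARNT2 at least 1.3-fold lower in both (11.8% of genes were). The shares are near those of all genes, and the clones share 1 control library, so an unusual value of a gene in that library moves both ratios.

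**Figure D3:**
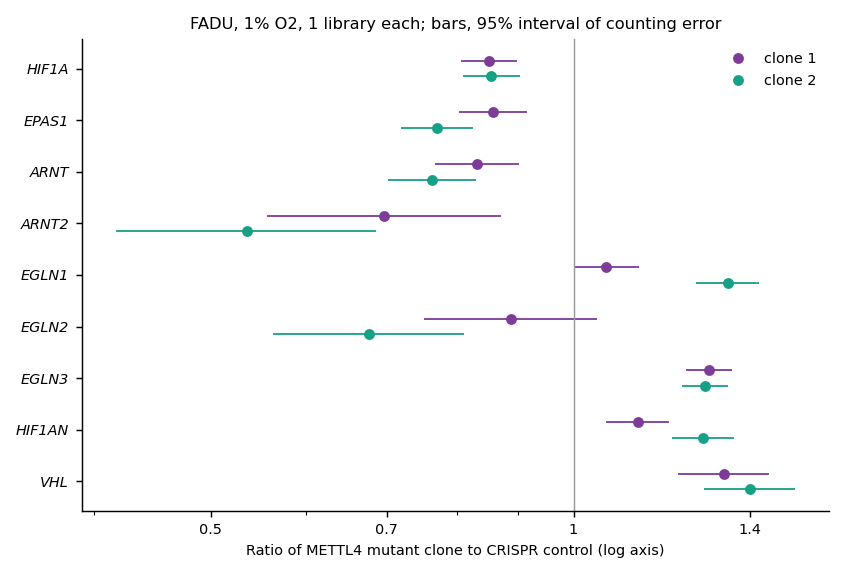
Ratio of each METTL4 mutant clone to the CRISPR control, on a log axis, for the 9 measured genes in FADU at 1% O2, with 95% intervals of counting error. HIF1A, EPAS1, ARNT, ARNT2 and EGLN2 lie left of 1 in both clones and EGLN1, EGLN3, HIF1AN and VHL right of 1, with the interval of EGLN2 in clone 1 crossing it.

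Around the members, 5 lists of other genes of the pathway were read. Their counts stand beside 9.73% of all genes that rose and 9.65% that fell in FADU hypoxia, 17.9% and 18.3% in BFTC909 hypoxia, 12.5% higher and 15.3% lower in FADU METTL4-si, and 13.2% and 11.7% in BFTC909 METTL4-si. With overexpression of METTL4, 8% of all genes were higher and 10.5% lower, and with that of RP11-390F4.3, 16.5% and 12.5%. Of 20 HIF target genes, 19 rose in hypoxia in each line and 1 fell, VEGFA in FADU (log2 fold change -0.41, SE 0.08, limma adjusted p = 0.016) and PFKFB4 in BFTC909 (-0.65, SE 0.08, limma adjusted p = 0.000636). The fall of VEGFA was not called by edgeR, after centring on the median, or without any 1 of the 4 libraries compared. The list medians were 1.87 in FADU and 1.76 in BFTC909, beside -0.03 and -0.02 for all tested genes. In the libraries labelled METTL4-si, 18 of the 20 were lower than in hypoxic Scr-si in FADU, 1 was higher (VEGFA, 0.45, not without hypoxia replicate 1 or METTL4-si replicate 2) and STC2 was not called, and all 20 were lower in BFTC909, with medians of -2.28 and -1.39 beside 0.02 and 0.01 for all genes. Overexpression of METTL4 raised 16 and that of RP11-390F4.3 raised 20, with medians of 1.06 and 1.74 beside 0.01 for all genes in both. Counts without the 3 libraries with markers of other cells are no support here, since the FADU spread then came from 2 libraries alone. List counts at an unadjusted p under 0.05 stand beside counts of all genes in either direction. These were 6366 of 16324 in FADU hypoxia, 6496 of 14869 in BFTC909 METTL4-si and 7353 of 15644 with METTL4 overexpression.

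Of 21 measured dioxygenases other than the members, enzymes that need oxygen as EGLN1 does, 10 rose and 1 fell in hypoxia in FADU and 9 rose and 3 fell in BFTC909. The list medians were 0.33 and 0.15 in hypoxia, -0.28 and -0.09 in the libraries labelled METTL4-si, and 0.16 with METTL4 and 0.19 with RP11-390F4.3. The collagen-modifying enzymes PLOD2 (log2 fold changes 2.18 in FADU and 1.73 in BFTC909) and P4HA1 (2.05 and 1.64) rose in both lines, as did the histone demethylase KDM3A in FADU (1.91) and P4HA2 in BFTC909 (1.76). Between METTL4-si and hypoxic Scr-si, 9 were lower and 2 higher in FADU and 8 lower and 0 higher in BFTC909 by limma, with 1 higher by edgeR and 4 higher at an unadjusted p under 0.05. PLOD2 (-1.76 and -0.999), P4HA1 (-1.66 and -1.15) and KDM3A (-1.53 and -1.14) were lower in both. METTL4 overexpression raised 7, among them P4HA1 (1.21) and KDM3A (1.16), and lowered 2, and RP11-390F4.3 overexpression raised 7 and lowered 1. Without the 3 libraries with markers of other cells, the hypoxia counts were 11 and 1 in FADU and 10 and 3 in BFTC909, and the METTL4-si counts 11 lower and 1 higher in FADU and 9 lower and 2 higher in BFTC909. The rise of 10 in FADU became 7 without replicate 1, and 6 without replicate 2, of either normoxia or hypoxia, and none fell without any 1 of these 4. In BFTC909 METTL4-si, 3 were higher without its replicate 1, and in FADU 1 was higher without any 1 library but METTL4-si replicate 2.

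Of the 21 genes of the VHL ligase and of HIF-alpha turnover, 1 rose in FADU hypoxia, WSB1 (log2 fold change 0.98, SE 0.09, limma adjusted p = 0.000935), which encodes a ubiquitin ligase subunit, and none fell by limma or edgeR, with 4 lower at an unadjusted p under 0.05. The list medians were -0.07 in FADU and -0.24 in BFTC909 in hypoxia, -0.18 and -0.03 in the libraries labelled METTL4-si, and 0.11 with METTL4 and 0.07 with RP11-390F4.3. In BFTC909, WSB1 (0.68), OS9 (0.67) and SIAH2 (0.41) rose and 7 genes fell, among them the chaperones HSP90AA1 (-0.80) and HSP90AB1 (-0.70) and the ligase subunit ELOC (-0.78), a split that became 5 higher and 4 lower after centring and 2 higher and 4 lower without normoxia replicate 1. In FADU 5 were lower and 1 higher in the libraries labelled METTL4-si, including WSB1 (-0.66) and the co-chaperone PTGES3 (-0.75), while USP20, a deubiquitinase, was higher (0.48). Without the 3 libraries above, 7 were lower and none higher in FADU and 2 lower and 1 higher in BFTC909. The FADU count was 2 lower without either hypoxic Scr-si library, and none was higher without any 1 library but METTL4-si replicate 2. In BFTC909, USP20 was higher (0.77) and HSP90AA1 lower (-0.41), the former not without hypoxia replicate 1 and the latter not without hypoxia replicate 2, while 2 were higher and 3 lower without METTL4-si replicate 1. With RP11-390F4.3, 4 rose, led by FKBP8 (0.83) and WSB1 (0.78), and 2 after centring. With METTL4 none was called by limma or edgeR, and at an unadjusted p under 0.05 there were 10 higher and 2 lower.

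Of 19 measured co-activators and inhibitors of HIF, 4 rose and 1 fell in FADU hypoxia, and 4 rose and 2 fell in BFTC909. The medians were -0.12 and 0.11, and -0.20 and -0.15 in the libraries labelled METTL4-si. BHLHE40, a repressor that is itself a HIF target (1.202 and 1.02), and CITED2, which competes with HIF for its co-activators (0.87 and 1.32), rose in both lines. CITED4 fell in FADU (-1.02), and BHLHE41 rose in BFTC909 (1.58). In the libraries labelled METTL4-si, 4 were lower and 1 higher in FADU (BHLHE40 -1.33, PKM -1.24, CITED4 0.81) and 5 lower and 1 higher in BFTC909, with HEXIM1 (-1.68) and CITED2 (-1.31) the lowest. Without the 3 libraries, the METTL4-si counts were 6 lower and 1 higher in FADU and 5 lower and none higher in BFTC909, and in FADU hypoxia 3 rose and 2 fell. The 4 that rose in FADU hypoxia became 1 without either hypoxic library and 2 without either normoxic one, and the 2 that fell in BFTC909 became 1 without normoxia replicate 1. The 4 lower in FADU METTL4-si became 2 without either hypoxic Scr-si library, and 3 were higher without METTL4-si replicate 2. In BFTC909 METTL4-si, 3 were higher without its replicate 1 and none without any other single library.

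Of the other bHLH-PAS proteins, the family of HIF1A and ARNT, 7 were tested in FADU and 8 in BFTC909. Their medians were 0.17 and 0.19 in hypoxia and -0.06 and 0.46 in the libraries labelled METTL4-si. BMAL2 rose in FADU hypoxia (log2 fold change 1.15, SE 0.10, limma adjusted p = 0.00084) and fell in BFTC909 (-0.93, SE 0.12, limma adjusted p = 0.00102). In the libraries labelled METTL4-si, 2 were lower in FADU (BMAL2 -1.53, AHRR -0.45), and 4 were higher in BFTC909, with AHR, the dioxin receptor, at 1.25 and NPAS2 at 0.89. Without the 3 libraries these counts were 1 and 5. The 2 in FADU became 1 without any 1 library other than METTL4-si replicate 2, and the 4 in BFTC909 became 2 without hypoxia replicate 1. BMAL2 was also higher with METTL4 (0.58) and with RP11-390F4.3 (1.26) in FADU.

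**Figure D4:**
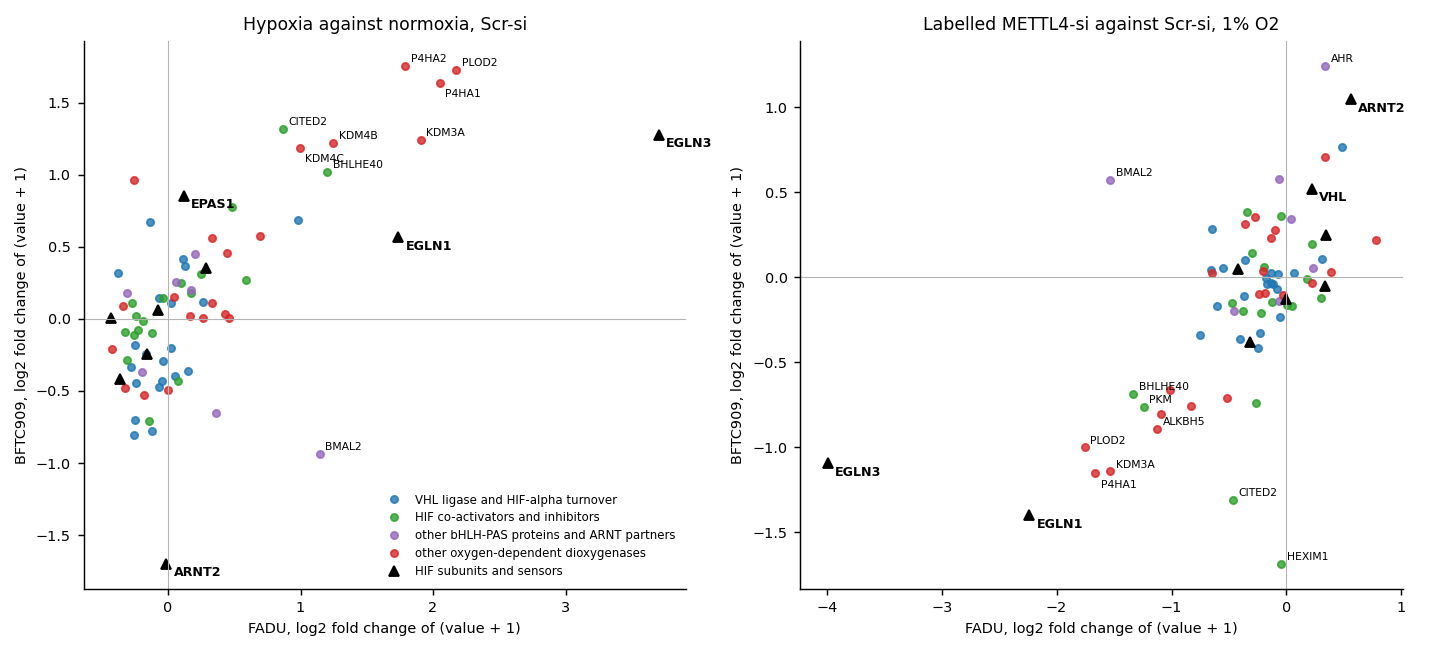
Log2 fold change of (value + 1) in BFTC909 against that in FADU, for hypoxia against normoxia (left) and for libraries labelled METTL4-si against Scr-si at 1% O2 (right), with the members as triangles and 4 lists of other pathway genes as colored points. EGLN3 lies at 3.70 and 1.28 in the left panel, to the right of PLOD2, P4HA1 and KDM3A. Each gene of the ligase list lies within 1 of 0, and BMAL2 has opposite signs in the 2 lines in both panels.

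The genes most like 4 of the members were found by the correlation of log2(value + 1), centred within each table, over the 12 knockdown libraries and 13595 genes. EGLN3 was most like TNIP1 (r = 0.982), PDK1-AS1 (0.978) and NPEPPS (0.978), and EGLN1 was like TIPARP (0.994) and OXSR1 (0.986). HIF1A was most like TTC39C (0.963), SLC30A1 (0.96) and MARCHF3 (0.958), and EPAS1 most like ENSG00000260822 (0.956), KCNMA1 (0.955) and SNTB1 (0.953). The points share their libraries and depth, and 3 groups in each line set most of their spread, so these values are a description.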

How the data were processed

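RNA was extracted with the RNeasy kit and libraries were made with a stranded Kapa kit after ribosomal RNA removal. The authors used Trim Galore for trimming, HISAT2 for alignment (hg19), htseq-count for counts per gene and edgeR for scaling. Versions, annotation release and the strand setting are not given in the sources used here. Each deposited value is a signal in TMM-normalized CPM, given for 19505 genes in the FADU knockdown table, 17232 in BFTC909, 18316 in overexpression and 15719 in mutant cells. The authors' comparison tables hold a log2 fold change, a mean log2 CPM, a score (F) and an unadjusted p-value per gene, and were not used. Identifiers were matched to GENCODE symbols (18887, 16721, 17763 and 15308 matched). Groups came from the sample labels. All libraries of a group differed by more than sampling noise.

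Whole reads were recovered from the values of every library (100% within 0.01 read). The limma test (eBayes with trend) ran on log2(value + 1) of the 6 libraries of a table, for 16324, 14869 and 15644 genes with at least 1 in at least 2 libraries, so fold changes of low genes are understated. edgeR on recovered reads, pseudocounts of 0.1 and 5, other filters, centring, the compared groups alone, a replicate block, unadjusted p and each library left out were alternatives. The set without 3 libraries was chosen after seeing the data. Where an arm kept 1 library, that library was assumed to vary like the others. The fits were tested on simulated data with 200 changed genes. Replicate numbers were not taken as pairs. Values per kb were divided by the canonical transcript length. The members and lists were chosen with earlier results of these data known. Genes are named by rule: the members, METTL4 and CA9, genes overlapping a member, up to 3 called genes of a list per direction with a mean of at least 5, and the 3 genes most like each of 4 members, of which 1 is not reported here. Python 3.11.15, pandas 2.3.3, scipy 1.17.1, R 4.3.3, limma 3.58.1 and edgeR 4.0.16 were used. With 2 libraries a group no permutation test could reach a small p.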

Additional observations from a re-analysis of the deposited data

Results flagged for a closer look

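The changes of 5 members differed between the lines in the joint limma fit of the 12 knockdown libraries, in which a difference is that of BFTC909 minus FADU on the log2 scale. For hypoxia against normoxia the difference was -2.43 for EGLN3 (SE 0.24, limma adjusted p = 0.000183), with a rise of 3.70 in FADU and 1.28 in BFTC909. It was -1.17 for EGLN1 (SE 0.16, limma adjusted p = 0.000954), with 1.74 and 0.57, and 0.73 for EPAS1 (SE 0.09, limma adjusted p = 0.000523), with 0.12 and 0.85. The values of EGLN3 in BFTC909 are low, so adding 1 before the log understates its changes there.

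For the libraries labelled METTL4-si against Scr-si the difference was 2.90 for EGLN3 (SE 0.24, limma adjusted p = 6.92e-05) and 0.84 for EGLN1 (SE 0.16, limma adjusted p = 0.00507), both lower in each line and more so in FADU. It was -0.39 for HIF1A (SE 0.11, limma adjusted p = 0.0343), with 0.34 in FADU and -0.05 in BFTC909, and 0.30 for VHL (SE 0.10, limma adjusted p = 0.0492), with 0.22 and 0.52. The HIF1A difference did not pass without any 1 of 10 of the 12 libraries, and the VHL difference without any 1 of 11, with a pseudocount of 5, without a filter or after centring. Each line has a table of its own, so line and table cannot be told apart. The hypoxic Scr-si libraries enter both sets of differences.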

How the results depend on the processing

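Of 97 counts of called members under an alternative that left out no single library, 3 moved by over 1.5 times. In BFTC909 hypoxia a mean of at least 5 gave 3 in place of 5, since ARNT2 and EGLN3 were then not tested. The count of members whose hypoxia response differed between lines went from 3 to 5 by unadjusted p, beside 5207 of 13595 genes. ARNT2 was among these 5, although its difference is no test. That count also went to 5 without the 3 libraries with markers of other cells. With 1 library left out, the counts ran from 2 to 3 in FADU hypoxia (3 in full), 2 to 5 for METTL4-si in FADU (3), 0 to 2 for METTL4-si against normoxia in FADU (1), 2 to 5 in BFTC909 hypoxia (5), 2 to 5 for METTL4-si in BFTC909 (4), 3 to 5 against normoxia (4), 3 to 4 with METTL4 overexpression (4), 3 to 5 with RP11-390F4.3 (4), and 3 to 5 (3) and 2 to 5 (4) for the differences between lines. The cause of these changes was not tested. EGLN3 and EGLN1 in FADU hypoxia kept their call without each library. No called member value changed direction under these settings. Of 862 values without a left-out library 831 kept their side of the threshold, 15 lost it, 11 gained it and 5 mutant ratios moved, and of 648 with 1 left out 578 kept it. edgeR on whole reads changed no member's call and called 3198 against 3163 genes in FADU hypoxia and 5497 against 5382 in BFTC909 hypoxia. A replicate block changed no member's call, with 3169 and 5452 genes there. Same-numbered libraries deviated together in FADU normoxia and METTL4-si (r = 0.648) but not in the other pairs of groups (-0.0652 to 0.154), so they were not read as pairs. Centring libraries on their median moved the share of called genes that were higher from 49.6% to 60.4% in BFTC909 hypoxia, from 53.1% to 37.2% for METTL4-si in BFTC909 and from 56.9% to 41.2% with RP11-390F4.3, while the median of all genes moved by under 0.1. Depth limits ARNT2 in BFTC909 hypoxia, at 8 and 6 reads.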

Other observations

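Genes of the pathway lists that had opposite signs in the 2 lines, or a large change in 1 of them, were picked after their values had been seen, so the differences between the lines (BFTC909 minus FADU, log2 scale) are a description with no test. The hypoxia response differed by 2.90 for VEGFA, the vascular growth factor, and by -2.08 for BMAL2, a partner of CLOCK. In the libraries labelled METTL4-si the change differed by 2.11 for BMAL2, by 0.91 for AHR and by -1.64 for HEXIM1.

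Over the 12 knockdown libraries, centred within each table, EGLN1 and EGLN3 had a correlation of 0.899, and EGLN3 had -0.772 with EGLN2 and -0.694 with HIF1A. EPAS1 had 0.888 with CA9 and -0.716 with HIF1A. These values describe 6 libraries of each line in 3 groups.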
